A study of Drosophila melanogaster with 2 samples.

Results

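Chromatin immunoprecipitation followed by sequencing (ChIP-seq) recorded where the Arrowhead (Awh) protein lay at the 10 genes of the fruit fly that encode the ecdysone receptor and the transcription factors of the ecdysone response: EcR, usp, br, Eip74EF, Eip75B, Eip78C, Hr3, Hr4, ftz-f1 and Eip93F. Awh is a LIM-homeodomain transcription factor. The study has 1 group of 2 biological replicates, replicates 1 and 2, both of whole Drosophila melanogaster embryos of the Awh-GFP strain, collected from 0 to 24 h of age. The flies carried a transgene for Awh fused to eGFP, an enhanced green fluorescent protein, and per the labels the antibody recognised GFP, although another label field names Awh. The labels do not give the number of embryos in a collection, the promoter of the transgene or the sex of the embryos, and a whole-embryo sample mixes all cell types and stages of that day, so a region used in few cells cannot be told apart from one weakly used in many. A possible control named in the labels was not analysed here, and no group without the fusion protein enters, so no comparison between conditions and no test could be made.

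The unit described is a region, an interval of the conservative list of peaks that the authors made from both replicates, with overlapping peaks merged into 1. A region was assigned to a gene when its summit, the position of highest signal, had a start of that gene as the nearest protein-coding transcript start or lay inside the gene. By this rule 41 of the 4781 regions on the 6 main chromosomes belonged to 8 of the 10 genes. Neither usp nor Eip93F had a region. The signal of a region is the value that the authors' files give for its peak. The labels do not state its scaling, so it served only to rank regions within a list and to set the replicates beside each other.

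Ecdysone is the steroid hormone that times moulting and metamorphosis in insects, and pulses of it also occur during embryogenesis. EcR is the hormone's nuclear receptor and binds DNA together with its partner nuclear receptor, encoded by usp. The hormone-bound receptor switches on a set of early genes that encode transcription factors, among them br, Eip74EF and Eip75B, and these with further nuclear receptors control later genes in sequence. Hr3 activates ftz-f1 after the hormone pulse has passed, and the Eip75B protein can hold Hr3 in check.

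The summit windows of 6 genes are shown first because they are the stretches with the highest Awh-eGFP signal in each of these genes. Each runs 100 bp to either side of the summit, is read 5′ to 3′ on the plus strand of Release 6 (dm6) and comes from the RefSeq genome. Capitals mark copies, on either strand, of 4 sites. These are TAATTA, the core bound by many homeodomain proteins, and ACAGTG, a hexamer in 16.1% of the summit windows of the whole list. The others are AGGTCA, the element contacted by single nuclear receptors, and GAGAG, the site of GAGA factor.
br, chrX:1618809-1619009: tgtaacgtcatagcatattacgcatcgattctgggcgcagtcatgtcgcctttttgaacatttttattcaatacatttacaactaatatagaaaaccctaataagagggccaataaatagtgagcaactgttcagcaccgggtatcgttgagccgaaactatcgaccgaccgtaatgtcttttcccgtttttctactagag
Eip74EF, chr3L:17566919-17567119: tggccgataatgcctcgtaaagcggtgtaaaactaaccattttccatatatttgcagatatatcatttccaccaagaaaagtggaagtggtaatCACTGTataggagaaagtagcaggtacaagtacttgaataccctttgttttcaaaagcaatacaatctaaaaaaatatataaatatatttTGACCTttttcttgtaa
Eip75B, chr3L:18019725-18019925: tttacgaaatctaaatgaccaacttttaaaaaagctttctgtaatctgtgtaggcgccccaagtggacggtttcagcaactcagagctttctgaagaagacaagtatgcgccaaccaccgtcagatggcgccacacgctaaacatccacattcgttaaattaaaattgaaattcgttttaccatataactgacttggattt
Eip78C, chr3L:21262014-21262214: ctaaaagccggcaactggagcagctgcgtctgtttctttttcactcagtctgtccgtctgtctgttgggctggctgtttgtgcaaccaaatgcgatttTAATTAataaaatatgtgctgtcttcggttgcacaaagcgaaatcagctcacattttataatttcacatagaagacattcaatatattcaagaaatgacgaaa
Hr4, chrX:1947647-1947847: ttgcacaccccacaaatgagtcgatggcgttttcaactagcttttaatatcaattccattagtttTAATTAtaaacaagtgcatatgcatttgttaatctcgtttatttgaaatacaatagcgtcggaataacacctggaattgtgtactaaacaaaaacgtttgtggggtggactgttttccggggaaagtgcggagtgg
ftz-f1, chr3L:18789684-18789884: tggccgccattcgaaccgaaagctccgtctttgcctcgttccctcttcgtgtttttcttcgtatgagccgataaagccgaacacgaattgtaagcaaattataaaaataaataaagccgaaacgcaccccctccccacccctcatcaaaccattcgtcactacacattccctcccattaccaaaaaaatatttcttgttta
The Eip78C window holds TAATTA from 2 bp before its summit, and the Hr4 window holds it from 35 bp before. In the Eip74EF window ACAGTG lies on the minus strand 6 bp before the summit and AGGTCA, also on the minus strand, 84 bp after it. The windows of br, Eip75B and ftz-f1 hold none of the 4 sites. A match is a description of letters and does not show which protein was bound.

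A further pair of windows was chosen after their values were seen. The first is the region at a start of Eip75B, and the second is the Hr4 region with the most GAGAG.
Eip75B, chr3L:17999708-17999908: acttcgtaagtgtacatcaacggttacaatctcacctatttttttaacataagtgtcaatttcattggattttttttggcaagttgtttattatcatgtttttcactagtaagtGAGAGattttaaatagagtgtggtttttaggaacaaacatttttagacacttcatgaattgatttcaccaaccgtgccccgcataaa
Hr4, chrX:1975878-1976078: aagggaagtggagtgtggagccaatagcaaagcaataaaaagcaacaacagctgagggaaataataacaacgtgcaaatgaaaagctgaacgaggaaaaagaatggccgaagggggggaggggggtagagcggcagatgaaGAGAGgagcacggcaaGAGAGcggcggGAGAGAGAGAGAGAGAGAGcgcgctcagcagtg
The Eip75B promoter window holds 1 GAGAG, 14 bp after the summit, and has a GC content of 31.8%. The Hr4 window holds 10 copies, most of them overlapping in 1 run of GA repeats 68 to 82 bp after the summit. That region had a low signal of 52.5 and a GC content of 52.7%.

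Regions were common in these genes. At least 1 region was found in 8 of 10 genes, where 22.1% of all 13945 protein-coding genes had 1. By the nearest start alone it was 7 of 10, against 20.5% of all genes, because the br region lay nearest to the start of a gene nested in br. At least 5 regions were found in EcR (8), Eip75B (5), Eip78C (5), Hr4 (9) and ftz-f1 (7), thus in 5 of 10 genes against 1.36% of all. This count rested on the joint list. In replicate 2's own list 3 genes had at least 5 regions (Eip75B, Hr4 and ftz-f1), against 0.803% of all genes, and in replicate 1's own list 2 (Eip75B and Hr4), against 0.452%. EcR had 3 and 4 regions there and Eip78C 4 and 1. Counting the gene itself, 38 protein-coding genes had at least as many regions as Hr4, 56 at least as many as EcR and 71 at least as many as ftz-f1.

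Gene length has to be read beside these counts. All genes of the set except usp span at least 30 kb, a length chosen after seeing the data, and Eip75B spans 113.7 kb. Of the 663 protein-coding genes of that length, 61.8% had a region and 16.6% had at least 5, against 8 and 5 of the 9 long ecdysone genes. Per 10 kb of gene the median of these 9 was 0.899 regions, and that of all 663 was 0.242. The densest were ftz-f1 with 1.38, Hr4 with 1.36 and Eip78C with 1.25 regions per 10 kb, while br, at 89.7 kb, had 0.111. Members share neighbourhoods in part, since br, Hr4 and usp lie close together on the X chromosome and ftz-f1 and the Eip genes other than Eip93F lie on 3L.

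**Figure D1:**
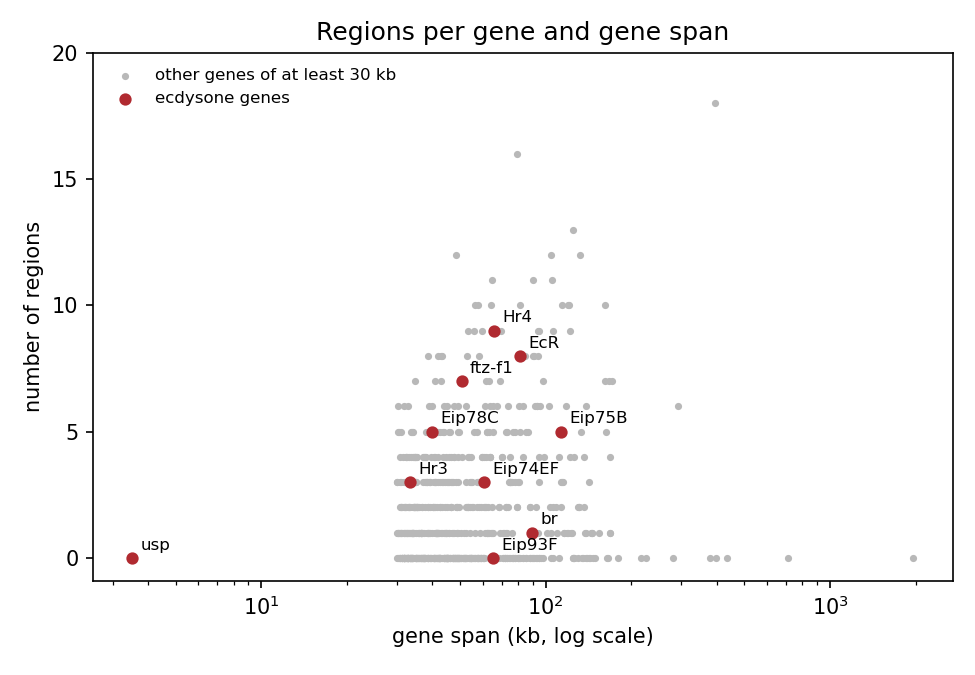
Number of regions (vertical axis) against gene span in kb (horizontal axis, log scale) for the 10 ecdysone genes (red, named) and all other genes of at least 30 kb (grey). Hr4, EcR and ftz-f1 have 9, 8 and 7 regions, while br and Eip93F, of like span, have 1 and 0. The highest grey gene has 18.

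Within the genes the regions were intronic. An intron held 38 of the 41 summits (92.7%), against 43.5% of all regions. The promoter class, within 500 bp of a start, held 2 regions, where it held 32.1% of all. The 3′ UTR class held 1 region, at the end of Hr4, against 0.795% of all. None was intergenic, in a coding exon or in a 5′ UTR, classes that held 21.7%, 1.21% and 0.669% of all regions. The rule favours positions inside genes, so the intergenic count follows in part from it. With all genes except usp spanning at least 30 kb, the intron and promoter shares and the distances to starts may also depend on it. That was not tested. Summits lay a median of 6207 bp from the nearest start, against 1603 bp over all regions. Among intronic regions alone the medians were 6916 and 3630 bp.

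Of the 41 regions, 30 were nearest to a start of their own gene and 40 lay inside it. The other 11 sat inside a member but nearest to the start of another gene. The br region was nearest to Mur2B, 4 of the 5 Eip78C regions to CG43218 and 2 of the 8 EcR regions to CG14589, and the rest were nearest to CycT, CG34221, PIG-K or Atg3. Among the 30, the Hr3 regions with signals of 611.6 and 154.9 had a nearest start that Hr3 shares with CG46321. For the 11 and for these Hr3 regions the lists cannot say which gene, if any, a region serves.

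**Figure D2:**
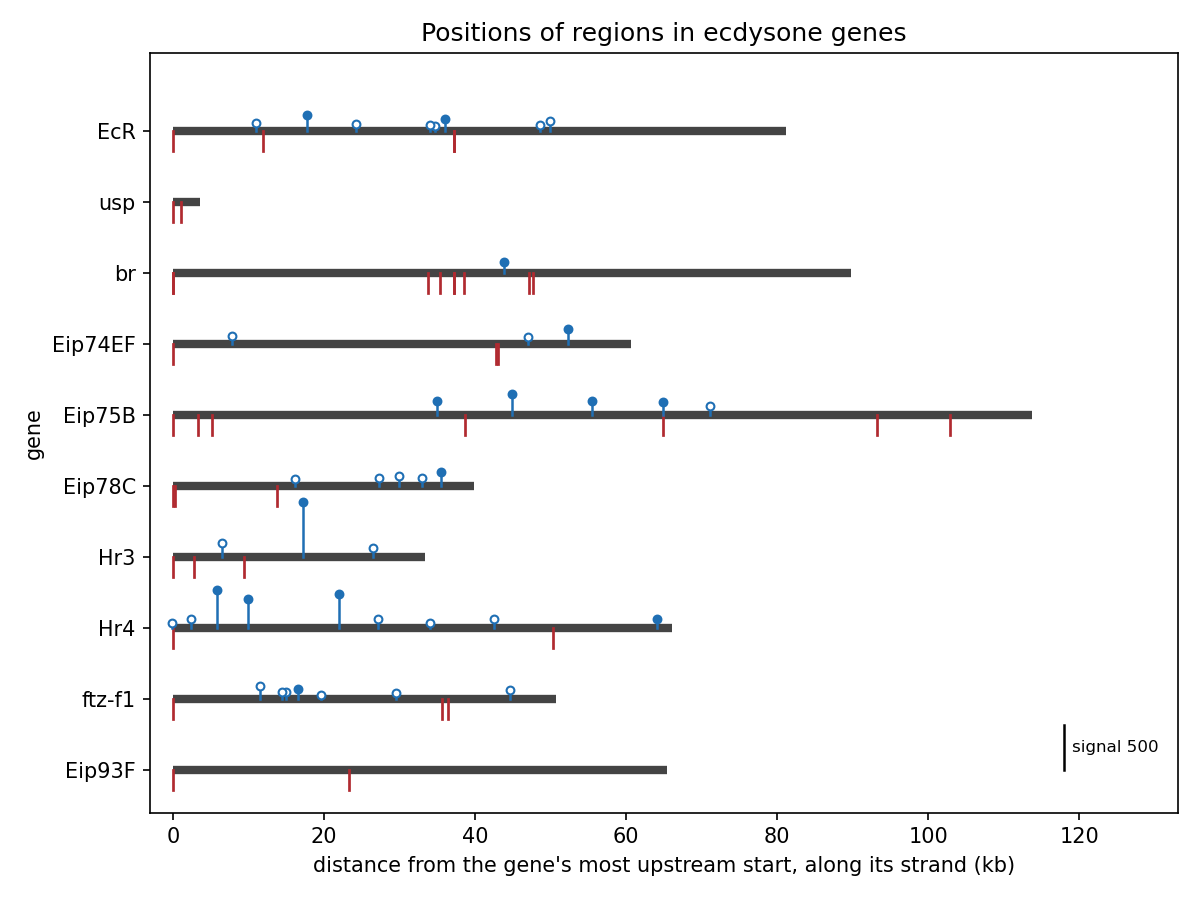
Positions of the 41 regions along the 10 genes, in kb from the most upstream start along the gene's strand. Dark bars are the genes, red ticks below them the transcript starts, and stems the summits with height in proportion to the signal (scale bar 500). Filled heads mark regions in both replicates' own lists. The tall stems of Hr3 and Hr4 stand inside the genes, and usp and Eip93F carry none.

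The receptor genes differed from each other. EcR, the hormone receptor gene on chromosome 2R, had 8 regions, all intronic, with signals from 58.97 to 174.4 and a median of 82.9. The strongest, chr2R:6151235-6151564, had 86.7 in replicate 1 and 66.7 in replicate 2. The second, chr2R:6132916-6133245, had a signal of 129.5, with 61.4 in replicate 1 and 85.1 in replicate 2. These 2 regions were the only ones of EcR in both replicates' own lists, and the replicates ordered them differently. The first lies in the intron 5729 bp downstream of the start shared by EcR-RD and EcR-RE. The second, also in an intron, lies 1159 bp upstream of the start of EcR-RB and EcR-RC. No EcR region came closer to a start than 934 bp, and the most upstream start, of EcR-RA, had its nearest region 11024 bp away.

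The partner gene usp had no region in the conservative list, nor in any other thresholded list. This gene spans only 3.51 kb. Its strongest candidate below the threshold had a signal of 48.3 and a score of 433, where the list requires 830. It lay 185 bp from the start of usp-RA, with 29.9 in replicate 1 and 20.2 in replicate 2. Both values were above the median of all candidates of their replicate, 14.5 and 14.6.

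Of the early genes, Eip75B had the strongest region and the most regions in both replicates' lists. Eip75B encodes a heme-binding nuclear receptor. Its 5 regions had signals from 101.8 to 230.7, and 4 of the 5 were in both replicates' lists. The strongest, chr3L:18019660-18019989, shown above, had 146.4 in replicate 1 and 88.7 in replicate 2 and lay in an intron 6207 bp from the start of Eip75B-RG. The promoter region, chr3L:17999643-17999972, had its summit 13 bp from the start of Eip75B-RC, with 93.1 in replicate 1 and 70.4 in replicate 2. It had a signal of 145.8 and was the only region of the 10 genes that lay at a start and in both replicates' lists. Of the 7 start positions of Eip75B, those of RG and RC took all 5 regions, and the nearest regions to the other starts were over 20 kb away.

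Eip74EF, which encodes an ETS-domain transcription factor, had 3 intronic regions. The strongest, chr3L:17566854-17567183, also shown above, had a signal of 169.3, with 104.1 in replicate 1 and 83.1 in replicate 2. The other two, at 94.7 and 82.2, were in neither replicate's own list. The region at 94.7 had 43.8 in replicate 1 and 39.4 in replicate 2, and its score of 834 was the nearest to the threshold among all 41. Just outside the conservative list was a candidate of Eip75B with a signal of 61.3 and a score of 826. It was in the authors' broader list, called optimal here.

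The br gene, which encodes zinc-finger transcription factors of early metamorphosis, had a single region in 89.7 kb. That region, chrX:1618744-1619073, had a signal of 128.8 and was in both lists, with 88.4 in replicate 1 and 47.0 in replicate 2. As a ratio this was the largest excess of replicate 1 among the 41. None of the other 145 candidates in br exceeded 45.9, and none was in the optimal list, the broader list of the authors.

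Eip78C, a nuclear receptor gene, had 5 intronic regions with signals from 77.5 to 158.1. Only the strongest, chr3L:21261949-21262278, was in both lists, with 71.8 in replicate 1 and 88.1 in replicate 2. It lay 35.5 kb from the most upstream start, toward the end of the gene, and 4 of the regions sat within 8.17 kb there. One of these, with 34.4 in replicate 1 and 74.7 in replicate 2, showed the largest excess of replicate 2 among the 41, also as a ratio.

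The highest signals belonged to the nuclear receptor genes Hr3 and Hr4. In Hr3, the gene of the receptor that acts between the early genes and ftz-f1, the intronic region chr2R:10219954-10220186 had a signal of 611.6. It ranked 61 of the 4781 regions, with 376.3 in replicate 1 and 238.4 in replicate 2. It lay 7876 bp downstream of the start of Hr3-RA, Hr3-RF and Hr3-RH, which is also a start of CG46321. The other two Hr3 regions reached 154.9 and 102.3, and neither was in both lists.

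Hr4, which encodes a nuclear receptor known for its role at the onset of metamorphosis, had 3 strong intronic regions between its first and its second start. They lay 5.81, 9.97 and 21.97 kb from the first start. The first, chrX:1947656-1947835, had a signal of 425.0 (rank 137), with 227.4 in replicate 1 and 191.7 in replicate 2. The second, chrX:1951826-1951996, had 325.4 (rank 272), with 180.0 in replicate 1 and 140.5 in replicate 2. The third, chrX:1963844-1964027, had 381.6 (rank 170), with 206.7 in replicate 1 and 185.6 in replicate 2. All 3 were in both replicates' lists, and in each replicate they exceeded every other of the 41 regions except the strong one of Hr3. These 4 regions were also the only ones of the 41 narrower than 330 bp, against 12.4% of all regions. A width of 330 bp was shared by 36 of the 41 and by 82.5% of all.

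The other 6 Hr4 regions were weaker, with signals from 52.5 to 103.6. One of them, chrX:1941698-1942027, was the other promoter region of the set, 77 bp upstream of the first start. Its signal of 59.9 came from 39.8 in replicate 1 and 34.7 in replicate 2, and it was in neither replicate's own list.

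The competence factor gene ftz-f1, whose nuclear receptor product also works with Fushi tarazu in the early embryo, had 7 intronic regions of low to middle signal, from 49.4 to 145.3. The strongest, chr3L:18789619-18789948, had 47.9 in replicate 1 and 73.3 in replicate 2 and was only in the list of replicate 2. The only ftz-f1 region in both lists, chr3L:18784617-18784946, had 64.7 in replicate 1 and 57.9 in replicate 2. Of the 7, 5 lay within 8.11 kb, between 11.5 and 19.6 kb downstream of the start of ftz-f1-RB, ahead of the other starts of the gene.

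Eip93F, the gene of a helix-turn-helix factor of late metamorphosis, spans 65.4 kb and had no region in any thresholded list. Its strongest candidate had a signal of 63.1 and a score of 498 and lay 5019 bp upstream of a start, with 35.4 in replicate 1 and 21.3 in replicate 2. That value was above the strongest candidate of usp and above the strongest one of br outside its region, and it fell short of the threshold.

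**Figure D3:**
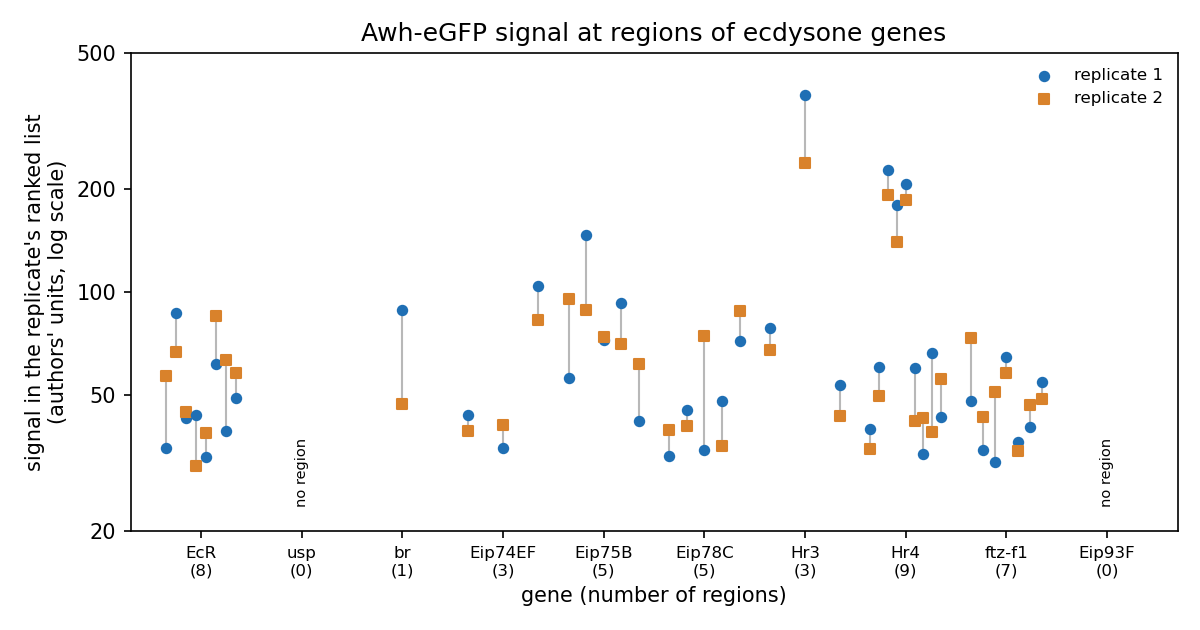
Signal of each of the 41 regions in the ranked lists of replicate 1 (blue circles) and replicate 2 (orange squares), by gene, with lines joining the 2 values of a region; vertical axis in the authors' units, log scale, and regions ordered along each gene. The strong region of Hr3 and the 3 of Hr4 lie above 140 in both replicates. Of the other values only 1 does, 146.4 in replicate 1 for Eip75B.

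As a set, the regions were of ordinary strength. Their median signal was 102.6 (range 49.4 to 611.6), and that of all regions was 105.1. Of the 41, 18 (43.9%) reached the median over all regions, a mark that 50% of all regions reach by construction. Each of the 8 genes with a region had at least 1 at or above it.

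The replicates ranked the 41 regions much as they ranked all regions. The median log2 ratio of replicate 1 to replicate 2 was 0.15 (SD 0.47, n = 41 regions), against 0.02 (SD 0.49) over all. The ratio ran from -1.12 in Eip78C to 0.91 in br, with replicate 1 higher in 22 regions and replicate 2 in 19. Spearman's rho between the replicates was 0.624 over the 41 regions and 0.654 over all. The values of a region share its sequence and selection by the same joint list, so rho is a description.

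In the replicates' own thresholded lists, 15 of the 41 (36.6%) were in both, against 43.3% of all regions. The list of replicate 1 held 20 of them, against 55.3% of all, and that of replicate 2 held 22, against 61.2%. In neither list were 14 (34.1%), against 26.8%. Every ecdysone gene with a region had at least 1 region in both lists.

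**Figure D4:**
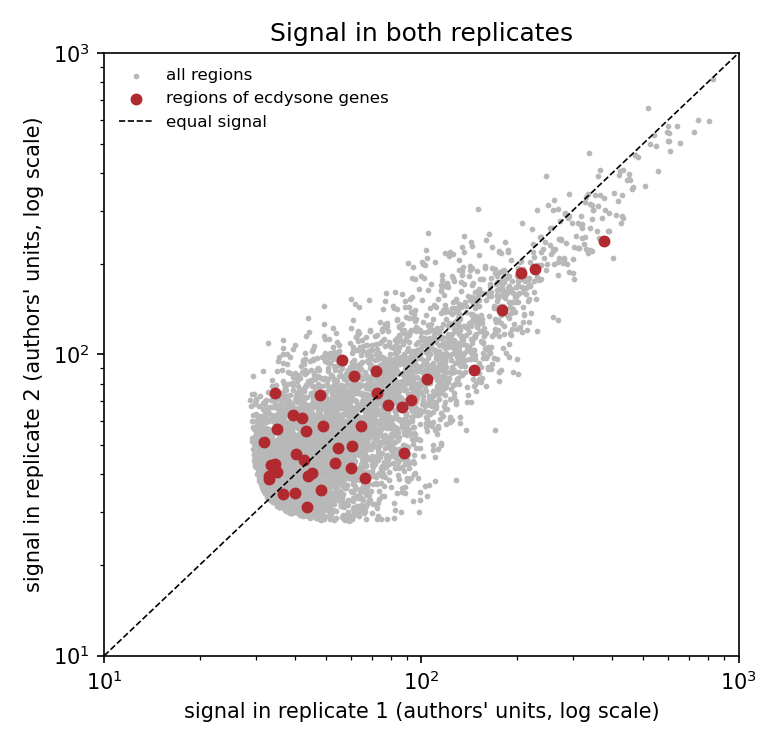
Signal in replicate 1 (horizontal) against replicate 2 (vertical), in the authors' units on log axes, for all regions (grey) and the 41 regions of ecdysone genes (red); the dashed line marks equal signal. The red points spread on both sides of the line like the grey ones, with the regions of Hr3 and Hr4 at the upper right.

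At the transcript starts, Eip75B and Hr4 had a region at a promoter of their own. That was 2 of 10 genes (20%) against 10.6% of all genes, and 2 of the 9 long genes (22.2%) against 21.7% of the 663. The ranked list, which holds every candidate peak whatever its score, had a candidate within 500 bp of a start for all 10, against 76.4% of all genes. The strongest such candidate had a median signal of 59.5 over the 10 genes and 37.8 over all genes that had one. Genes with several starts have more chances to hold one.

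Outside the conservative list the start candidates ranged widely. Eip78C had 81.4 at the start of Eip78C-RB, from 24.2 in replicate 1 and 64.6 in replicate 2. For ftz-f1 it was 70.4 at the start of ftz-f1-RC and ftz-f1-RD, from 23.3 in replicate 1 and 53.1 in replicate 2. In both genes replicate 2 was the higher. Hr3 had 69.5 at the start of Hr3-RA, Hr3-RF and Hr3-RH, with 29.8 in replicate 1 and 37.0 in replicate 2. The values of Eip74EF (59.1), EcR (50.5), usp (48.3), br (30.5) and Eip93F (28.8) followed. Those of Eip78C, Hr3, Eip74EF and EcR were in the optimal list. Replicate 2's own list held those of Eip78C and ftz-f1.

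Of 8 short sites sought within 100 bp of the summits, GAGAG differed most from all regions in its share. Each site was sought on both strands, and GAGAG was singled out after the counts were seen. GAGAG was in 22 of the 41 windows (53.7%), against 26.4% of all regions, 25.8% of all intronic regions and 25.9% of intronic regions in genes of at least 30 kb. Within introns it was in 19 of 38 (50%). The genes shared in it unequally. EcR had it in 6 of 8 regions, Hr4 in 5 of 9, Eip78C in 3 of 5, ftz-f1 in 3 of 7, Eip75B in 2 of 5, Hr3 in 2 of 3, Eip74EF in 1 of 3, and br lacked it.

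Most regions with GAGAG held it over 50 bp from the summit, and those with it had the lower median signal. Within 50 bp of the summit 8 of the 41 regions (19.5%) had it, against 12.8% of all, and within 200 bp 28 (68.3%), against 48%. Among regions at or above the median signal it was in 7 of 18 (38.9%), against 25.1%. The 22 regions with GAGAG had a median signal of 89.7, and 5 (22.7%) were in both replicates' lists. The 19 without it had a median of 128.8, and 10 (52.6%) were in both. GC content moved with it, at a mean of 43.8% with GAGAG and 39.4% without. For the 41 windows together the mean GC content was 41.7%, against 39.5% for all regions. The part of GC content in the count was not tested. Over all regions the medians were 101.9 with GAGAG and 106.3 without, and 42% and 43.8% were in both lists.

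Within 100 bp of the summits, the homeodomain core TAATTA was no more frequent here than elsewhere. It was in 7 of the 41 windows (17.1%), against 19.7% of all regions and 20.7% of intronic ones. Within 50 bp it was in 6 (14.6%), against 13.7% of all, and within 200 bp in 7 (17.1%), against 29.2%. Eip78C had it in 3 regions and Eip74EF, Hr3, Hr4 and ftz-f1 in 1 each, and those of Hr4 and Eip78C with the highest signal in their gene are printed above. It was in 3 of the 18 regions at or above the median signal, against 20.6%. The windows of Hr3's strongest region and of the other two strong Hr4 regions lacked it.

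The shares of the other sites lay above, near or below those of all regions. ACAGTG was in 7 windows (17.1%), against 16.1% of all and 17.4% of intronic regions. AGGTCA was in 3 windows (7.32%), in EcR, Eip74EF and ftz-f1, against 4.02% and 4.52%. The AT-rich hexamers AATATT and TTTAAA, counted for their composition, were in 6 (14.6%) and 7 (17.1%) windows, against 24.4% and 24.3% of all and 25.7% and 23.5% of intronic regions. CCGGAA, the core bound by ETS factors, was in 2 (4.88%), against 4.64% and 2.98%. TATCGATA, the site of the promoter factor DREF, was in none, against 1.72% and 0.385%.

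**Figure D5:**
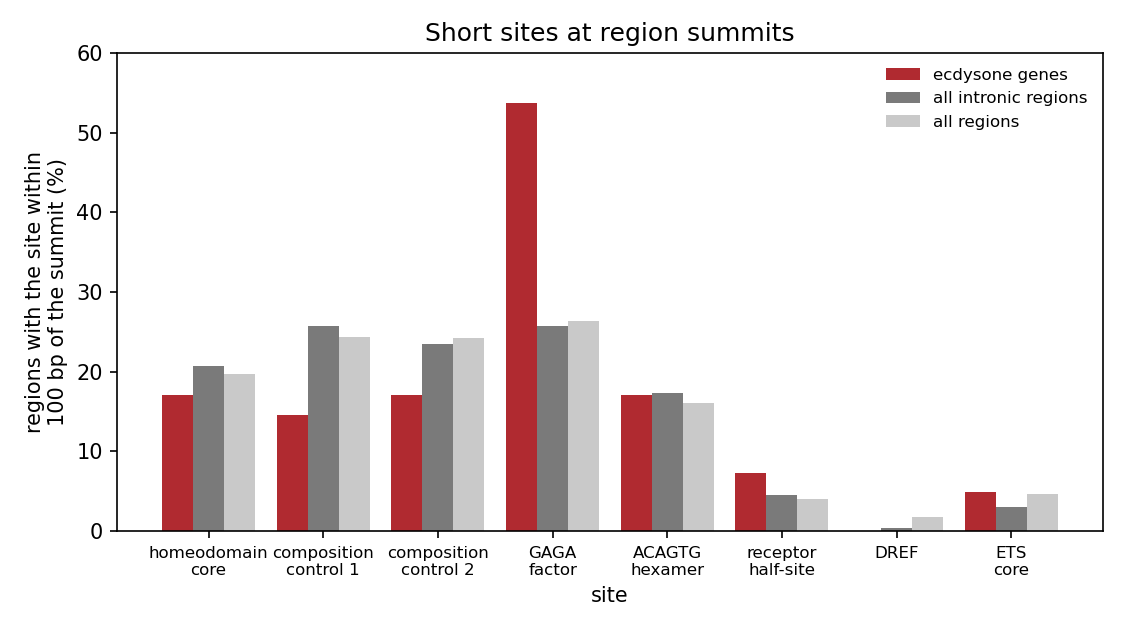
Share of regions (%) with each of 8 short sites within 100 bp of the summit, for the 41 regions of ecdysone genes (red), all intronic regions (dark grey) and all regions (light grey). The red bar of the GAGA factor site reaches 53.7%, and that of the homeodomain core, 17.1%, is below both grey bars.

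Further genes of the hormone's pathway were read from lists drawn up with earlier results of these data known. Of 58 genes matched to the annotation, 24 (41.4%) had a region, beside the 22.1% of all protein-coding genes given above, which also applies to each list that follows. Among the 8 that span at least 30 kb, 5 had a region, where 61.8% of all 663 genes of that length had 1. None of the 7 matched genes of ecdysteroid synthesis, the enzymes that make and activate the hormone, had one, and only 2 of the 7 span at least 30 kb. Of 5 genes of hormone uptake and breakdown, 2 (40%) had a region. E23, an ABC transporter gene, had 395.5 at its promoter, with 216.8 in replicate 1 and 176.7 in replicate 2, and Oatp74D, the ecdysone importer, had 109.1.

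Of 14 other nuclear receptor genes 7 (50%) had a region, against 22.1% of all genes, but none of them reached the signal of Hr3's or Hr4's strongest. The highest were knrl (189.7), Hr51 (163.4), Hr38 (117.3), kni (106.3) and Hr78 (102.3). Of 8 co-regulator genes 3 (37.5%) had regions, the nucleosome remodeller Mi-2 (273.3), the corepressor Smr (130.8) and the coactivator tai (118.8, with 6 regions). Of 22 effectors and further response genes 11 (50%) had a region, again beside 22.1% of all. The strongest were ImpL2 (554.0), an insulin-binding protein gene induced by ecdysone, chinmo (354.2, with 9 regions), Eip63E (310.9), ImpL3 (169.2) and the death gene hid (131.0). Of the juvenile hormone receptor genes, gce had 312.3 and Met had no region.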

How the data were processed

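The deposited peak lists are on the dm6 build, per the labels. Per the labels' protocols, chromatin was sheared by sonication to 200 to 800 bp. The labels and files name no aligner or peak caller, and no file gives read totals, so the depth is unknown. For each peak the authors deposited a signal value and a score up to 1000. Peaks of their thresholded lists have a score of at least 830. Signal values in a replicate's list are on a lower scale than those of the joint list. The joint conservative list was the main set and the authors' broader joint list, called optimal here, an alternative.

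From these, 5024 of 5026 conservative peaks on the 6 chromosomes were merged where they overlapped. A region's replicate signal was the strongest peak overlapping it by at least 1 bp in that replicate's ranked list. Starts came from Ensembl release 115 (BDGP6.54) and sequence from RefSeq's Release 6 genome. Python 3.11 with numpy 2.4.6 and scipy 1.17.1 was used. The merging of peaks and the lookup of overlaps were tested on made-up intervals. Gene assignment and site counts were not tested in this way.

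No test between groups was possible with 1 group, so counts stand beside the same count over all genes or regions. The labels record separate biosamples for the replicates. Alternatives were the optimal list, each replicate's own list, stronger regions only, no merging, other assignment rules, promoter widths, site windows and overlaps. The genes and lists were chosen with earlier results of these data known. All 10 genes are named, and of each further list at most the 5 genes with the strongest region. Sequences shown are those of the strongest region of 6 genes, and others as stated. Of 61 listed symbols, 58 matched the annotation.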

Additional observations from a re-analysis of the deposited data

How the results depend on the processing

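The number of ecdysone genes with a region was 8 in each setting tried, except by nearest start alone, where it was 7 because br dropped out. Of 63 alternative values, 42 were labelled the same as the reported one and 21 as moved. A count was labelled the same if it changed by at most 1.5-fold, as with 28 regions in place of 41. Medians had limits of their own, and a median signal of 90.8 in place of 102.6 was labelled as moved. Only the median log2 ratio can take either sign, and it stayed positive, from 0.03 to 0.15. With the optimal list the median signal was 90.8 and promoter regions numbered 5. With the list of 1 replicate alone, regions numbered 23 to 28, the median signal was 66.4 to 67.6, promoter regions numbered 1 to 3, TAATTA was in 2 to 3 regions, GAGAG in 9 to 14, and 2 to 3 genes had at least 5 regions. TAATTA's share was 8.7% in replicate 1's list and 10.7% in replicate 2's, against 20% and 20.1% of all their regions. That of GAGAG was 39.1% and 50%, against 24.1% and 28.7%. The replicates' lists are shorter and have signals on a lower scale by construction. Among regions at or above the median signal of all, 18 remained, 1 at a promoter, 3 with TAATTA and 7 with GAGAG, and 0 genes had at least 5. By nearest start alone TAATTA was in 3 regions, and counting only regions inside a gene left 1 promoter region. Promoters of 1000 bp to either side held 4 regions. GAGAG within 50 bp was in 8 regions; all alternatives for GAGAG and for genes with at least 5 regions were chosen after seeing the data. Except for those set by construction, the cause was not tested. No paired analysis was possible because the samples form 1 group. With no read totals, no control library used and 2 replicates, a gene without a region, such as usp or Eip93F, had no peak past the authors' threshold, which does not show absence of binding.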

Other observations

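The regions called depended on the list more in some genes than in others. In the optimal list EcR had 7 regions, br 1, Eip74EF 7, Eip75B 10, Eip78C 8, Hr3 4, Hr4 8 and ftz-f1 6, in all 51. Of the 41 conservative regions 35 overlapped a region of it. Eip74EF, Eip75B, Eip78C and Hr3 thus had more regions there than in the conservative list, where they had 3, 5, 5 and 3, while EcR, Hr4 and ftz-f1 had fewer and br had as many.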
